A study of Mus musculus with 9 samples.

Results

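The urea cycle genes are the 10 genes Nags, Cps1, Otc, Ass1, Asl, Arg1, Slc25a15, Slc25a13, Gls2 and Glud1, taken by symbol from 17046 genes measured in mouse liver. They encode the enzymes of ammonia detoxification, 2 mitochondrial carriers that serve the cycle and 2 enzymes that release ammonia for it. All 10 were detected in all 9 livers, the least read being Nags with 973 to 1547 reads per liver.

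Liver RNA was sequenced from wild-type mice in 3 groups of 3. Every mouse had received an adeno-associated virus of serotype AAV8 through the tail vein, in which the TBG promoter, active in hepatocytes, drove either an empty cloning site (AAV8-TBG-MCS-3×FLAG-WPRE, the control virus) or Mettl3 with a FLAG tag (AAV8-TBG-Mettl3-3×FLAG-WPRE, the Mettl3 virus). Diets began 3 weeks after injection and ran for 10 days before 1 binge. The pair-fed group had the control virus, the control diet and maltose as the binge. The ethanol-fed group had the control virus, the ethanol diet and ethanol as the binge. The Mettl3 group, titled Mettl3OE EtOH-fed, had the Mettl3 virus and the same ethanol feeding. The titles name no virus, and the control virus is read from the prefix Ctrl on the data columns of the WT groups. No pair-fed group with the Mettl3 virus is among these libraries, so that Mettl3 was compared under ethanol alone. The labels give no age or sex and name no separate animals, so the p-values measure the spread between these libraries.

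The urea cycle is the liver's main route for turning ammonia, which is toxic, into urea. It begins in the mitochondria of hepatocytes, where ammonia and bicarbonate are joined into carbamoyl phosphate and then citrulline, and it ends in the cytosol, where arginine is split into urea and ornithine. In the liver lobule the cycle is strongest near the portal vein, while glutamine synthetase (Glul) takes up remaining ammonia around the central vein.

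Levels are in FPKM, which corrects a gene's reads for its length and for the size of the library. Recovered read totals were 34655840 to 38159563 per library. Mettl3, the gene carried by the virus, was at 3.97, 3.10 and 3.38 FPKM in pair-fed livers 1 to 3 and at 5.44, 4.86 and 3.78 in ethanol-fed livers 1 to 3. It was at 38.5, 25.0 and 33.3 FPKM in Mettl3 livers 1 to 3, above every other library and 6.87-fold above the ethanol-fed mean. Of 12 hepatocyte markers, 11 were listed in both tables, and their summed level was 68840 to 77981 FPKM in pair-fed, 70448 to 82644 in ethanol-fed and 68294 to 77726 in Mettl3 livers. Single markers differed within this sum. The mean of Fgb was 4153, 10061 and 14456 FPKM in the 3 groups, and that of Ttr 3814, 3073 and 2353. In whole liver, fewer cells of a type and less RNA per cell cannot be told apart.

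In pair-fed livers the order of mean levels was Ass1 at 730.2 FPKM, Arg1 at 610.2, Glud1 at 489, Cps1 at 474, Asl at 106, Otc at 102, Gls2 at 75.3, Slc25a15 at 61.0, Slc25a13 at 57.1 and Nags at 17.0. The range over 3 livers overlapped between neighbours in that order, with the exceptions of Arg1 with Glud1, Cps1 with Asl, and Slc25a13 with Nags. In ethanol-fed livers Arg1 led at 1187 FPKM, followed by Ass1 at 1089 and Cps1 at 861, and these ranges overlapped from each to the next. Glud1 had moved below Cps1 with no overlap of their ranges, and Otc stood below Slc25a15 without overlap. The Mettl3 livers had the same order of means as the ethanol-fed livers.

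**Figure D1:**
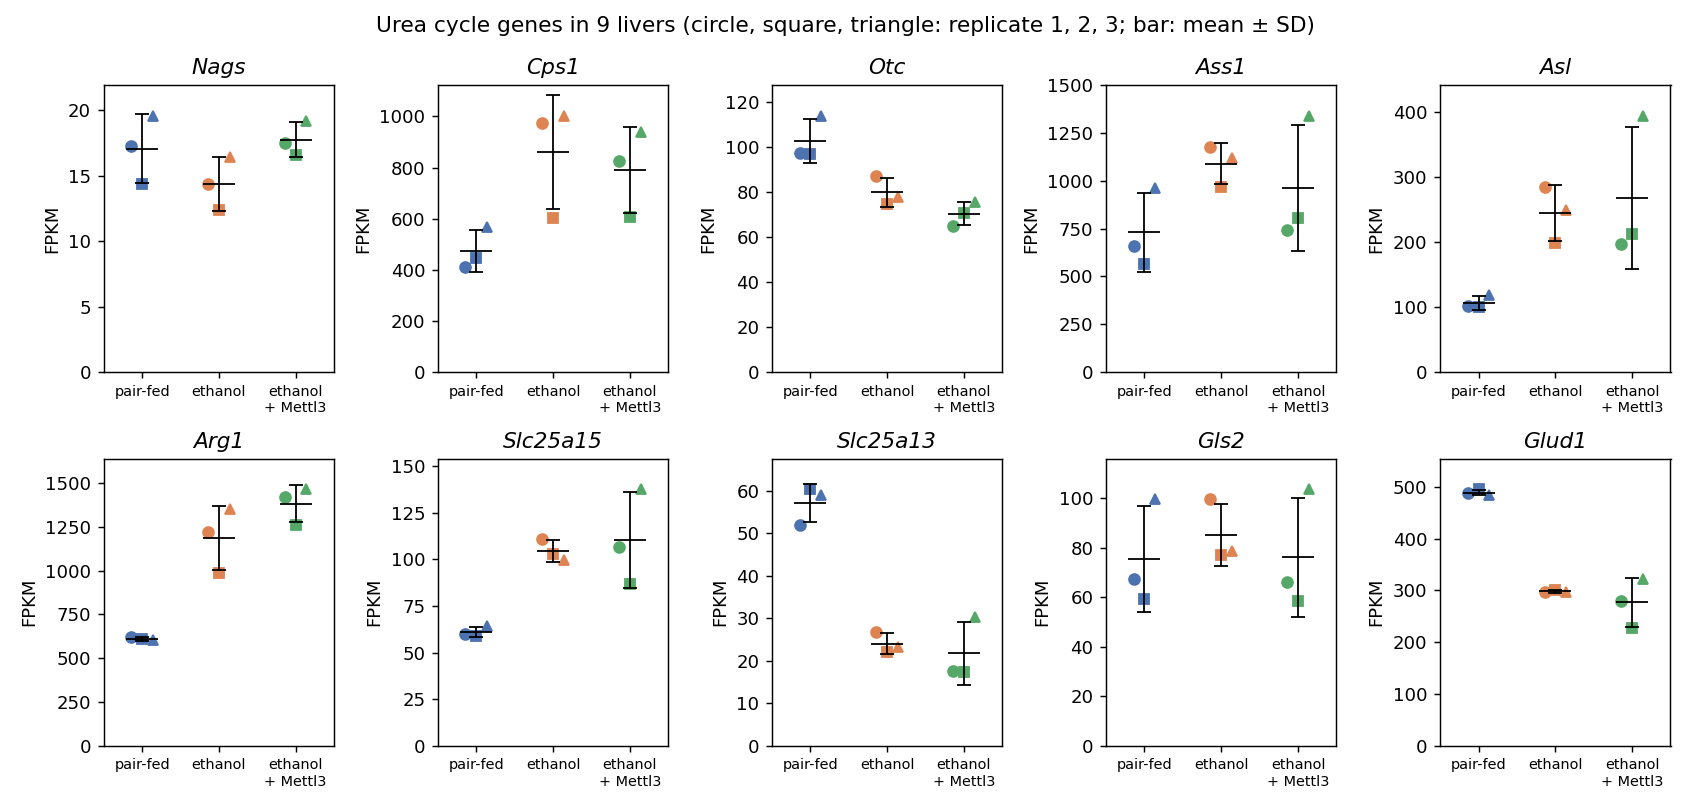
FPKM of each urea cycle gene (y axis, linear, from 0; each panel has its own scale) in the 3 pair-fed, 3 ethanol-fed and 3 Mettl3 livers (x axis). Points are livers and bars are means ± SD. The ethanol-fed points of Asl, Arg1 and Slc25a15 lie above all pair-fed points and those of Slc25a13 and Glud1 below them.

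The first comparison asked how ethanol feeding changed these transcripts in livers with the control virus. By limma's moderated test on log2(FPKM + 1), with Benjamini-Hochberg adjustment over all 10064 genes tested and a threshold of 0.05, 5 of the 10 rose (Cps1, Ass1, Asl, Arg1, Slc25a15) and 3 fell (Otc, Slc25a13, Glud1). Nags and Gls2 did not pass. Over all genes tested the same rule called 36.0%, of which 10.0% of genes were higher and 26.0% lower. The 8 called were also those whose 3 ethanol-fed values did not overlap the 3 pair-fed values, which held for 52.6% of all genes (15.4% higher, 37.2% lower). The median log2 fold change was 0.40 over the 10 genes and -0.14 over all genes. The scale of the libraries bears on these directions: calls over all genes were 1009 higher and 2616 lower on FPKM, and 1729 higher and 1783 lower (34.9% called, 17.2% and 17.7%) when libraries were rescaled by their median ratio. Under that rescaling the median of all genes moved to 0.00, that of the 10 genes to 0.58, and Otc lost its call.

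Nags makes N-acetylglutamate, the activator without which Cps1 is inactive. It was at 17.2, 14.3 and 19.6 FPKM in pair-fed livers against 14.3, 12.3 and 16.4 in ethanol-fed livers, and these values overlap. Its log2 fold change was -0.23 with a 95% interval of -0.57 to 0.11 (limma adjusted p = 0.252), an interval that holds both a modest fall and a small rise.

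Cps1, carbamoyl phosphate synthetase, makes the entry step of the cycle and is among the most abundant proteins of liver mitochondria. It was at 411, 444 and 567 FPKM in pair-fed livers against 976, 603 and 1003 in ethanol-fed livers. Ethanol-fed livers 1 and 3 were close together, while liver 2 lay just above the highest pair-fed liver. Cps1 rose by 0.83 ± 0.22 on the log2 scale (SE, limma adjusted p = 0.0244), a 1.81-fold difference of means. Without pair-fed liver 1, pair-fed liver 2 or ethanol-fed liver 3 its adjusted p was 0.0805, 0.0861 and 0.0783, each past the threshold.

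Otc joins carbamoyl phosphate to ornithine to form citrulline, and its gene is on the X chromosome. It was at 97.2, 96.5 and 114 FPKM in pair-fed livers against 87.1, 74.5 and 77.4 in ethanol-fed livers. The groups did not overlap, but their difference was the smallest of the 8 called, a fall by 0.36 ± 0.11 (SE, limma adjusted p = 0.0380). Its adjusted p was 0.182 under median-ratio rescaling and 0.361 as q in the authors' deposited table, and its call was lost without any 1 of 5 livers (pair-fed 1, 2 or 3 and ethanol-fed 2 or 3), with adjusted p of 0.0784, 0.0872, 0.134, 0.101 and 0.0918.

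Ass1, argininosuccinate synthetase, condenses citrulline with aspartate and so brings in the other nitrogen of urea. It was at 659.9, 568 and 963 FPKM in pair-fed livers against 1177, 969.9 and 1121 in ethanol-fed livers. Pair-fed liver 3 came within a few FPKM of ethanol-fed liver 2. Ass1 rose by 0.61 ± 0.20 (SE, limma adjusted p = 0.0471), just inside the threshold. It fell outside it without pair-fed liver 1 or 2 (0.136, 0.153), without ethanol-fed liver 1, 2 or 3 (0.0775, 0.0660, 0.118) and in a fit of all 9 libraries (0.0899).

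Asl, argininosuccinate lyase, splits argininosuccinate into arginine and fumarate. It was at 101, 99.9 and 119 FPKM in pair-fed livers against 284, 198 and 249 in ethanol-fed livers. Every ethanol-fed liver was far above every pair-fed liver, and the rise of 1.18 ± 0.15 on the log2 scale (SE, limma adjusted p = 0.00224) was the largest of the 10. The 95% interval of the ratio was 1.78 to 2.87.

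Arg1, liver arginase, closes the cycle by cutting arginine into urea and ornithine. It was at 620.4, 608 and 602 FPKM in pair-fed livers, a spread of 9.56 (SD), and at 1219, 989 and 1352 in ethanol-fed livers. The lowest ethanol-fed liver was well above the highest pair-fed liver, and Arg1 rose by 0.95 ± 0.13 (SE, limma adjusted p = 0.00283). Arginase is also made by some macrophages. Of 9 markers of monocyte-derived and Arg1-linked macrophages, 8 were listed in both tables and 2 reached 1 FPKM in each group. The sum of the 8 was 21.1 to 25.1 FPKM in pair-fed and 10.3 to 15.8 in ethanol-fed livers. Most of it was Mrc1, at 19.6 ± 2.08 and 9.69 ± 2.44 FPKM. The mean of Itgam went the other way, at 0.871 ± 0.136 and 1.34 ± 0.568 FPKM (SD, n = 3 each), with overlapping livers. The part of these cells in the Arg1 difference was not tested. Kidney and intestine markers, of which 4 of 8 were listed, summed to 79.2 to 113 FPKM in pair-fed and 57.5 to 78.4 in ethanol-fed livers. Nearly all of this sum was 1 gene, Fabp2, at 111.8, 105.6 and 78.1 FPKM in pair-fed and 77.3, 56.9 and 61.1 in ethanol-fed livers.

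Summed over the 6 cycle enzymes from Nags to Arg1, the level was 1907, 1831 and 2384 FPKM in the pair-fed group, 3757, 2847 and 3819 in the ethanol-fed group and 3268, 2975 and 4234 in Mettl3 livers. The means were 2041 ± 299.7, 3474 ± 544 and 3492 ± 659 FPKM (SD, n = 3 each). The pair-fed livers were all below the other 6. Most of each sum was Ass1, Arg1 and Cps1, whereas Otc, which was lower in ethanol-fed livers, and Nags added little. As a share of all listed FPKM the 6 enzymes made up 0.439% ± 0.0669, 0.733% ± 0.108 and 0.732% ± 0.148 (SD, n = 3 each).

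The 2 mitochondrial carriers moved in opposite directions. Slc25a15 (ORNT1) takes ornithine into the mitochondrion and citrulline out. It was at 59.9, 59.1 and 64.2 FPKM in pair-fed livers against 111, 103 and 99.5 in ethanol-fed livers, a rise of 0.76 ± 0.09 (SE, limma adjusted p = 0.00183). Slc25a13 (citrin) exports aspartate, which Ass1 uses, in exchange for glutamate, and also serves the malate-aspartate shuttle. It was at 52.0, 60.4 and 59.0 FPKM in pair-fed livers against 26.8, 22.1 and 23.2 in ethanol-fed livers, a fall by 1.22 ± 0.11 (SE, limma adjusted p = 0.000861). Both differences are large beside the spread of 3 livers, and both calls held under all 12 alternative settings.

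A ratio of the 2 carriers within a liver does not depend on the scaling of libraries. Slc25a15 over Slc25a13 was 1.15, 0.978 and 1.09 in the pair-fed group, 4.15, 4.65 and 4.30 in the ethanol-fed group, and 6.06, 5.01 and 4.54 in Mettl3 livers. The ratio rose 4.08-fold with ethanol feeding (exact two-sided permutation p = 0.1, the smallest that 3 against 3 can give; adjusted over 15 ratio tests, 0.25), and no pair-fed liver approached the others. Slc25a12 (aralar), the other aspartate-glutamate carrier, was low in pair-fed livers at 1.62 ± 0.173 FPKM and was at 3.32 ± 0.329 in ethanol-fed livers (SD, n = 3 each). It rose by 0.72 (limma adjusted p = 0.00327). Its share of the FPKM of the 2 aspartate-glutamate carriers, computed after the values were seen, was 2.76% ± 0.194 in pair-fed, 12.1% ± 0.185 in ethanol-fed and 12.6% ± 2.25 in Mettl3 livers, while the sum of both was 58.8 ± 4.60, 27.3 ± 2.76 and 24.8 ± 7.74 FPKM (SD, n = 3 each).

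The 250 bases before the annotated start of each carrier gene are shown because these 2 members changed in opposite directions (RefSeq, GRCm38.p6, both on the minus strand, 5′ to 3′). The Slc25a15 window is chr8:22398622-22398871, before the outer of its 2 listed starts, and the Slc25a13 window is chr6:6217174-6217423. The Slc25a13 start used, 6217173, lies inside the listed span of the gene, which reaches 6217304. Part of the Slc25a13 window is therefore within the gene. Capitals mark matches to the motifs searched, on either strand.
Slc25a15: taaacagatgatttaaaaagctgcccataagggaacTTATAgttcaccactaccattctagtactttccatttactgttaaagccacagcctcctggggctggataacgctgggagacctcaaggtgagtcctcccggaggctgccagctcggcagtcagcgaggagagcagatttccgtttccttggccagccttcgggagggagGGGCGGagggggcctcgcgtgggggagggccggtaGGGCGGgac
Slc25a13: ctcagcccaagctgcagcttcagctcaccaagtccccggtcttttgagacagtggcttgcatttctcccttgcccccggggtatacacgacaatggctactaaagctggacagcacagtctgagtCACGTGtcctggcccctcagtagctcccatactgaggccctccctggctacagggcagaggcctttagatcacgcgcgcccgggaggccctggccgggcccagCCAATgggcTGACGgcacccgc
The Slc25a13 window holds the E-box CACGTG 125 bases before the start used, CCAAT 22 bases before it and the cAMP response element half-site TGACG 13 bases before it. All 3 lie within the listed span of the gene. The Slc25a15 window holds none of those 3, and has the GC box GGGCGG 44 and 9 bases before the start and TATAA, read on the other strand, 214 bases before it. None of these matches overlap each other. A total of 8 motifs was searched on both strands, chosen with the sequences in view, and over 32851 windows of this length CACGTG was found in 6.02%, CCAAT in 33.8%, TGACG in 17.8%, GGGCGG in 32.7% and TATAA in 22.8%. The other 3 motifs, TTGCNNAA (9.56% of windows), TGATGNAA (3.45%) and TGTTCT (16.1%), were in neither window. RefSeq windows were matched for 6 of the 10 genes, in 7 windows. CACGTG was in 3 of them (Ass1, Slc25a13 and the inner Slc25a15 start) and GGGCGG in 5. Cps1, Asl, Arg1 and Gls2 had no entry.

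**Figure D2:**
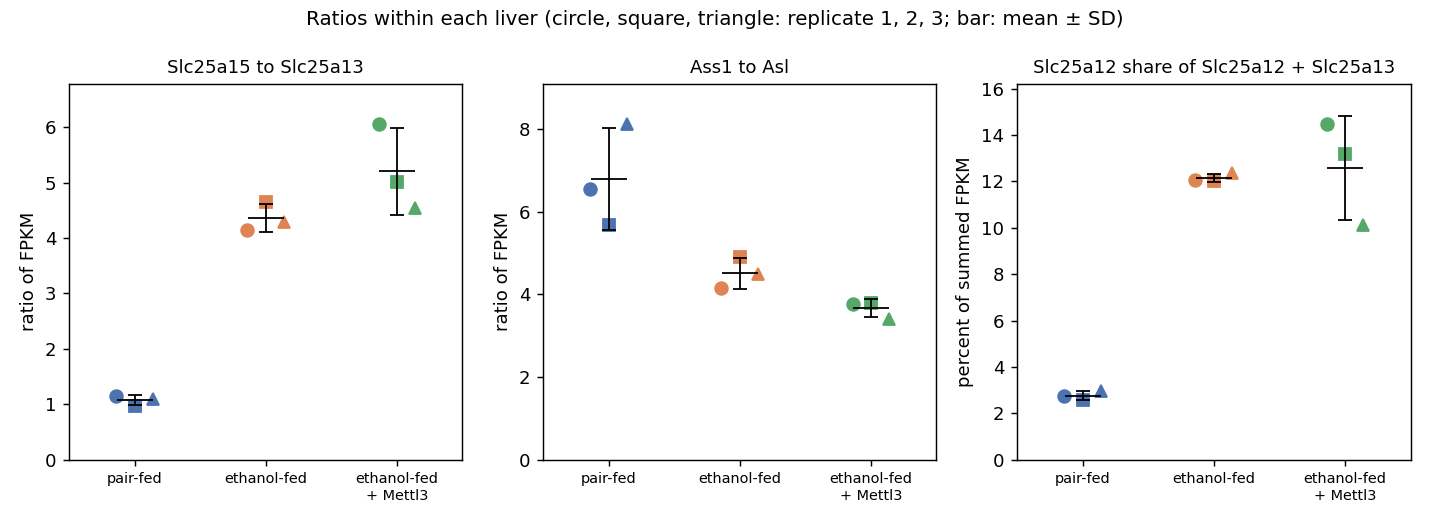
Within-liver values by group (x axis): the FPKM ratio of Slc25a15 to Slc25a13, that of Ass1 to Asl, and Slc25a12 as a percent of the summed FPKM of Slc25a12 and Slc25a13 (y axes, linear, from 0). Points are livers and bars are means ± SD. The ratio of Slc25a15 to Slc25a13 lies between 0.978 and 1.15 in pair-fed livers and above 4 in each ethanol-fed and Mettl3 liver.

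Ammonia reaches the cycle in part from glutamine, through liver glutaminase (Gls2), and from glutamate, through glutamate dehydrogenase (Glud1). Gls2 was at 67.2, 59.3 and 99.5 FPKM in pair-fed livers against 99.4, 77.0 and 78.5 in ethanol-fed livers. These overlap, and its log2 fold change of 0.20 had a 95% interval of -0.27 to 0.67 (limma adjusted p = 0.466). Glud1 was at 488, 495 and 484 FPKM in pair-fed livers against 297, 302 and 297 in ethanol-fed livers. Within each group the 3 livers lay within a few percent of each other, and Glud1 fell by 0.71 ± 0.08 (SE, limma adjusted p = 0.00186), a call that held under all 12 alternative settings. Glul, which makes glutamine from ammonia, was at 571, 623 and 595 FPKM in pair-fed livers against 453, 551 and 361 in ethanol-fed livers. The groups did not overlap, and its log2 fold change of -0.41 did not pass (limma adjusted p = 0.0775). Without ethanol-fed liver 2 it did, at -0.56 (adjusted p = 0.0274).

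The authors' deposited table of this comparison, made with DESeq2 per its column names, has q under 0.05 for 7 of the 10 members (26.6% of its 16842 genes). It differs from the calls above at Otc alone among the members. Its fold change is 2.60 for Asl, 2.23 for Arg1, 2.07 for Cps1, 1.95 for Slc25a15, 1.70 for Ass1, 0.696 for Glud1 and 0.477 for Slc25a13.

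**Figure D3:**
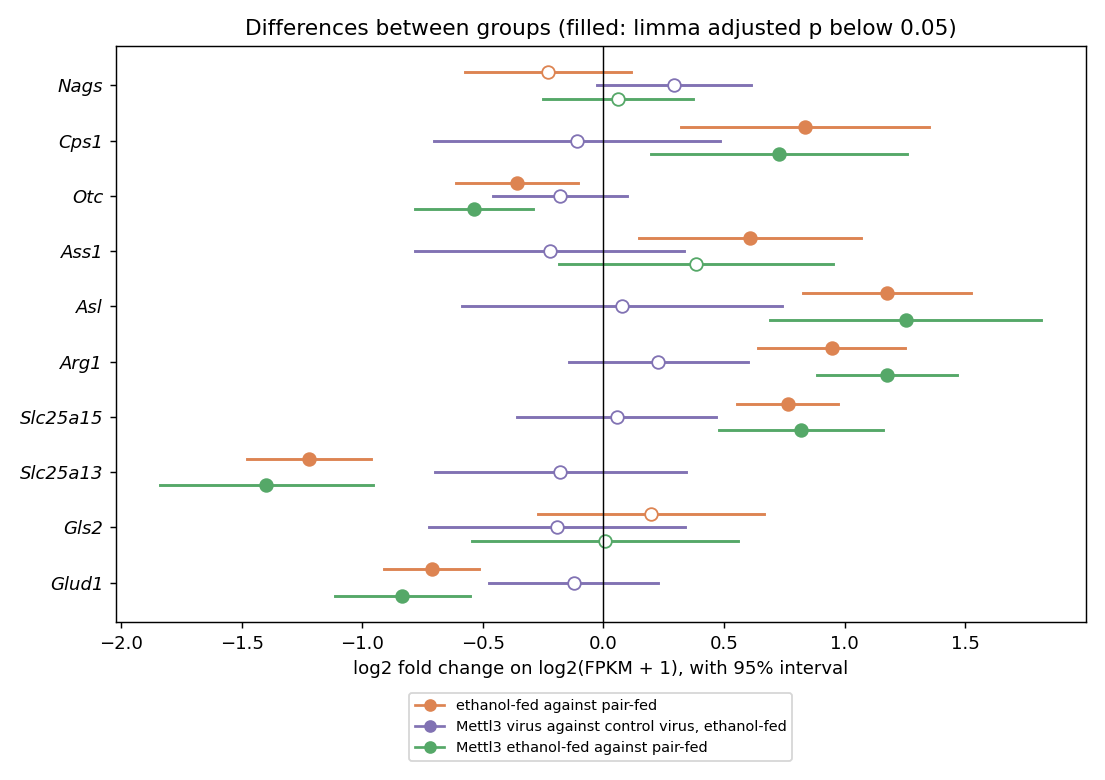
Log2 fold change of each urea cycle gene on the log2(FPKM + 1) scale (x axis) in 3 comparisons, with 95% intervals from limma as bars, filled points where the adjusted p was under 0.05, and genes on the y axis. With Mettl3 against control virus under ethanol, all 10 intervals cross 0, whereas ethanol-fed against pair-fed livers and Mettl3 livers against pair-fed livers share the pair-fed livers and have 8 and 7 called genes.

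The next comparison asked whether the Mettl3 virus changed the cycle genes under ethanol. None of the 10 was called by limma, none had an unadjusted p under 0.05, and none had q under 0.05 in the authors' deposited table. The authors' table has q under 0.05 for 101 of its 16470 genes (0.613%). Over all 9706 genes tested by limma 0.0103% were called, which is Mettl3 itself, and 723 genes had an unadjusted p under 0.05. The log2 fold changes of the 10 ran from -0.22 (Ass1) to 0.29 (Nags), with a median of -0.12 beside -0.04 for all genes, and adjusted p ran from 0.641 to 0.939. The intervals are wide for several genes, so that differences of moderate size are not excluded. For Cps1 the 95% interval of the ratio was 0.615 to 1.40, for Asl 0.667 to 1.67, for Arg1 0.906 to 1.52 and for Slc25a13 0.616 to 1.27.

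Nags was the member whose groups did not overlap here, at 14.3, 12.3 and 16.4 FPKM with the control virus and 17.5, 16.5 and 19.2 with the Mettl3 virus. Its log2 fold change was 0.29 with an interval of -0.03 to 0.61 (limma adjusted p = 0.641), and 12.8% of all genes had groups that did not overlap (6.17% higher, 6.62% lower). Arg1 was at 1219, 989 and 1352 FPKM with the control virus and at 1419, 1262 and 1464 with the Mettl3 virus. Here 2 of 3 Mettl3 livers were above every control virus liver, and the difference of 0.23 did not pass. Asl was at 197, 212 and 394 FPKM in Mettl3 livers, and the difference from the control virus, 0.08, became -0.24 without Mettl3 liver 3. Slc25a13 was at 17.6, 17.3 and 30.3 FPKM in Mettl3 livers, where liver 3 again stood above the other 2.

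Mettl3 livers were then set against pair-fed livers, which differ from them in both diet and virus. In a limma fit of all 9 libraries 7 of the 10 were called, against 48.8% of the 10229 genes tested, of which 13.9% of genes were higher and 34.9% lower. The same 7 had no overlap between groups, as did 63.6% of all genes (19.3% higher, 44.2% lower). The pair-fed livers are the same as in the ethanol-fed comparison, so these calls are not a second, separate set of evidence. The 4 that rose were Arg1 at 1.18 ± 0.13, Asl at 1.25 ± 0.25, Slc25a15 at 0.82 ± 0.15 and Cps1 at 0.73 ± 0.24 (log2 fold change ± SE; adjusted p = 0.000508, 0.00413, 0.00313 and 0.0301). The 3 that fell were Slc25a13 at -1.40 ± 0.20, Glud1 at -0.83 ± 0.12 and Otc at -0.54 ± 0.11 (adjusted p = 0.00117, 0.00145 and 0.00438).

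Otc was at 64.9, 70.6 and 75.3 FPKM in Mettl3 livers, below all 3 pair-fed livers, and Glud1 was at 279, 228 and 323. For Otc the call also held under median-ratio rescaling, where its fold change was -0.31 (adjusted p = 0.0270). Ass1 was at 744, 806 and 1341 FPKM in Mettl3 livers and overlapped the pair-fed livers, with a log2 fold change of 0.39 and an interval of -0.18 to 0.95 (adjusted p = 0.228). Nags (0.06, interval -0.25 to 0.37) and Gls2 (0.00, interval -0.55 to 0.56) did not pass. The Cps1 call was lost without pair-fed liver 1 or 2 or Mettl3 liver 1 or 3 (adjusted p = 0.0974, 0.0886, 0.0864 and 0.0729). Rescaling of the libraries moved the median of all genes from -0.18 to 0.00 and the calls over all genes from 1424 higher and 3572 lower to 2380 and 2436 (47.1% called, 23.3% higher and 23.8% lower). It left the 7 members called.

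The ratio of Ass1 to Asl, consecutive enzymes, also differed between groups. It was 6.54, 5.68 and 8.12 in the pair-fed group, 4.15, 4.90 and 4.49 in the ethanol-fed group and 3.78, 3.80 and 3.41 in Mettl3 livers. The 3 groups did not overlap in any pairing (exact two-sided permutation p = 0.1 each, the smallest possible, and 0.25 adjusted over 15 tests). Arg1 over Cps1 was 1.31 ± 0.229, 1.41 ± 0.203 and 1.79 ± 0.268 in the 3 groups (SD, n = 3 each), with the Mettl3 livers above the pair-fed livers without overlap and the other pairings overlapping. Asl over Arg1 (0.175, 0.206 and 0.192) and Gls2 over Glul (0.127, 0.192 and 0.148) overlapped between all groups.

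Within a group the members often shared their highest or lowest liver. Mettl3 liver 3 had the highest value of its group for 10 of 10 members (56.4% of all genes), and for 8 of 10 after median-ratio rescaling (39.8%). Ethanol-fed liver 2 was lowest for 8 of 10 (29.2% of all genes, and 8 of 10 against 32.8% after rescaling). Pair-fed liver 3 was highest for 7 of 10 (36.4%). Which ethanol-fed liver was highest depended on the scale: liver 1 for 6 members on FPKM and for 1 after rescaling, liver 3 for 3 and then 9. Relative to the group mean, the SD was largest for Asl in the Mettl3 group, 268 ± 109 FPKM, and smallest for Glud1 in the ethanol-fed group, 298 ± 2.70 FPKM (SD, n = 3 each).

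**Figure D4:**
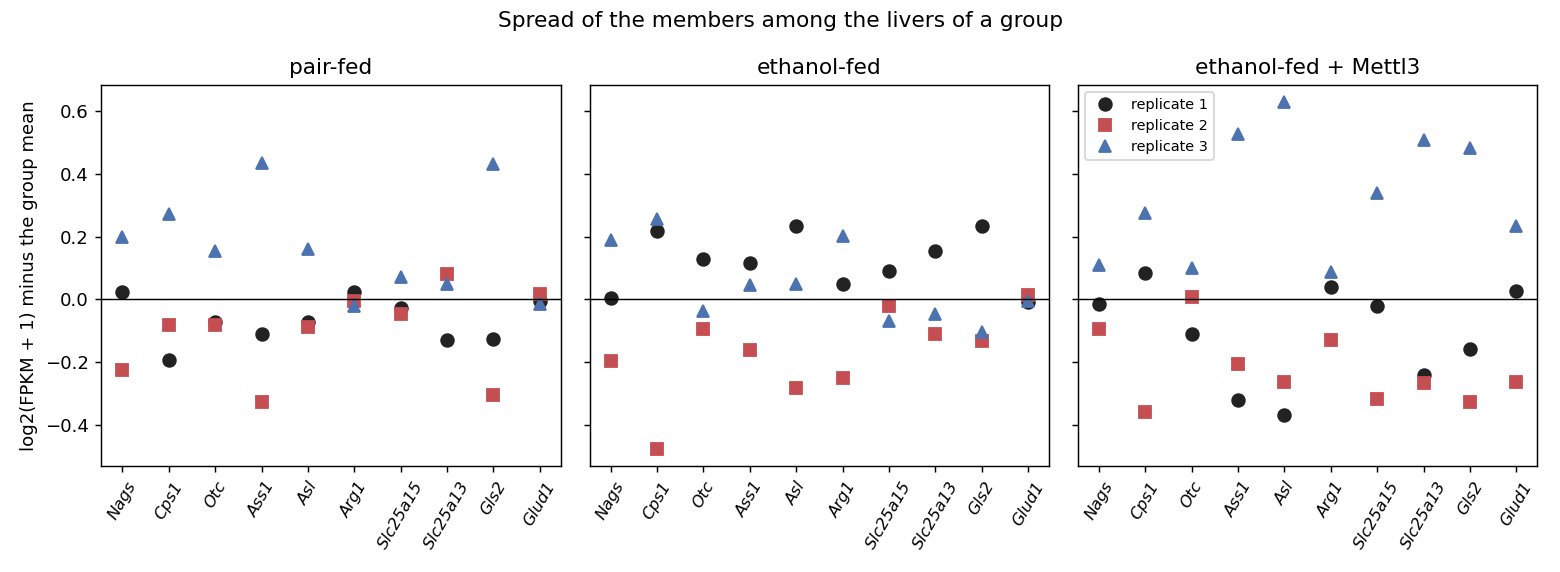
Deviation of each liver from its group mean on the log2(FPKM + 1) scale (y axis) for the 10 urea cycle genes (x axis), in 3 panels for the groups. Replicate numbers are marked by symbols. Mettl3 liver 3 is the highest of its group at every member, and ethanol-fed liver 2 the lowest of its group at 8 of 10.

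Among 10219 genes outside the members, the gene with the profile nearest to each cycle enzyme over the 9 libraries was found by the root mean square distance of mean-centred log2(FPKM + 1) values. Arg1 was nearest to Mat1a, the liver methionine adenosyltransferase, at a distance of 0.107 (median over all genes 0.626). Mat1a was at 911, 912 and 955 FPKM in pair-fed, 1987, 1860.4 and 2380.4 in ethanol-fed and 2479, 2084 and 2466 in Mettl3 livers. Cps1 was nearest to Got1, cytosolic aspartate aminotransferase, at 0.126 (median 0.550). Otc was nearest to Snx13 (0.0439, median 0.262), Ass1 to Gnmt, glycine N-methyltransferase (0.173, median 0.468), Asl to Rnd2 (0.257, median 0.722) and Nags to Nudt22 (0.0871, median 0.301). These distances are descriptions over libraries that share their depth and groups.

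Other genes of ammonia and arginine metabolism were counted in 5 lists beside the members. Over all genes, 36.0% were called with ethanol (10.0% higher, 26.0% lower) and 48.8% in Mettl3 against pair-fed livers (13.9% and 34.9%). After rescaling these shares were 34.9% (17.2% and 17.7%) and 47.1% (23.3% and 23.8%). The medians of all genes before rescaling were -0.14 and -0.18. Counts near these shares say little about a list. In ethanol-fed against pair-fed livers, the list for glutamate, glutamine and bicarbonate supply had 3 higher, 4 lower and 5 not called of 12 tested, with a median of -0.20 (3, 3 and 6 after rescaling). This list also holds sirtuins, which are not themselves supply enzymes. Car5a, the mitochondrial carbonic anhydrase that makes bicarbonate for Cps1, fell from 57.6 ± 5.35 to 22.1 ± 8.70 FPKM (log2 fold change -1.41, adjusted p = 0.00718). Sirt3, a mitochondrial deacetylase, fell by 1.00 (adjusted p = 0.00647), and Aldh4a1, which makes glutamate from proline, fell by 0.59 (0.00649). Gpt2, mitochondrial alanine aminotransferase, rose from 25.4 ± 2.12 to 56.3 ± 20.1 FPKM (1.07, adjusted p = 0.0123). Got1 rose from 65.7 ± 14.1 to 132 ± 32.0 FPKM (0.99, adjusted p = 0.0128). In Mettl3 against pair-fed livers 2 of these 12 were higher and 4 lower (3 and 3 after rescaling), with Car5a at 13.5 ± 6.51 FPKM (-2.11, adjusted p = 0.00198).

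Genes that use arginine or ornithine had 4 higher and 6 lower of 12 tested (4 and 4 after rescaling). Ddah1, which breaks down methylated arginines, fell from 40.3 ± 3.03 to 16.8 ± 1.32 FPKM (log2 fold change -1.21, adjusted p = 0.000723). Polyamine synthesis from ornithine was represented by Srm, spermidine synthase, which rose from 8.68 ± 1.02 to 24.2 ± 8.83 FPKM (1.33, adjusted p = 0.00578). Oaz1, the antizyme that restrains ornithine decarboxylase, fell by 0.59 (adjusted p = 0.00549). Sms, spermine synthase, which is outside the rule for named genes and was chosen after its values were seen, fell by 0.45 with ethanol and by 0.58 in Mettl3 against pair-fed livers (adjusted p = 0.0114 and 0.00332). In Mettl3 livers Odc1, ornithine decarboxylase, was 0.65 above pair-fed livers (adjusted p = 0.000807) and Srm 1.96 (0.00139). Odc1 was also called higher in ethanol-fed against pair-fed livers, by 0.47 (adjusted p = 0.00647). In Mettl3 against pair-fed livers the list stood at 3 higher and 6 lower (3 and 5 after rescaling).

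Carriers and channels for cycle substrates, glutamine and ammonia had 3 higher and 2 lower of 9 tested with ethanol, with the same counts after rescaling. Besides Slc25a12, the glutamate carrier Slc25a22 rose by 0.64 and the amino acid transporter Slc38a2 by 0.74, and Slc38a4 fell by 0.90 (adjusted p = 0.0174, 0.0222 and 0.00468). In Mettl3 against pair-fed livers 1 was higher and 4 lower (2 and 3 after rescaling), with Aqp8, a channel for water and ammonia, at 45.3 ± 1.22 FPKM in pair-fed, 24.8 ± 9.93 in ethanol-fed and 8.40 ± 1.34 in Mettl3 livers (-2.31 against pair-fed, adjusted p = 0.000342). Aqp8 was also called lower in ethanol-fed against pair-fed livers (-0.91, adjusted p = 0.0231).

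Of 18 transcription factors and receptors known to act on cycle genes, 2 were higher, 8 lower and 8 not called with ethanol (after rescaling 3, 6 and 9). Cebpa, which drives Cps1 and other liver genes, fell from 85.3 ± 14.1 to 44.7 ± 8.60 FPKM (log2 fold change -0.92, adjusted p = 0.00684). Gcgr, the glucagon receptor, fell by 0.64, Klf15 by 0.81 and Ppara by 1.78 (adjusted p = 0.0170, 0.0190 and 0.00177). In Mettl3 against pair-fed livers 3 were higher and 8 lower (3 and 6 after rescaling), among them Crem at 0.98, Foxo3 at -0.81 and the glucocorticoid receptor Nr3c1 at -0.80 (adjusted p = 0.00249, 0.00246 and 0.00511). Crem, Foxo3 and Nr3c1 were also called in ethanol-fed against pair-fed livers, at 0.60, -0.48 and -0.51 (adjusted p = 0.0348, 0.0431 and 0.0283). Among 12 genes that respond to glucagon or glucocorticoid, 3 were higher and 2 lower with ethanol (3 and 1 after rescaling). Tat, tyrosine aminotransferase, rose by 1.73, Sdsl by 1.05 and Sds, serine dehydratase, by 0.70, and Hal, histidine ammonia-lyase, fell by 0.74 (adjusted p = 0.00124, 0.00135, 0.0272 and 0.0170). With Mettl3 against control virus none of the 5 lists had a gene called by limma.

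Among the genes just named, some calls in ethanol-fed against pair-fed livers were lost when single livers were left out. Gpt2 lost its call without pair-fed liver 3, Slc25a22 and Gcgr without any 1 of the pair-fed livers, and Hal without pair-fed liver 1 or 3 (highest adjusted p = 0.0552, 0.0624, 0.0636 and 0.0879). Slc38a2 lost it without pair-fed liver 2, Klf15 without pair-fed liver 2 or 3 and Sds without pair-fed liver 1 or 2, and each of these 3 also without ethanol-fed liver 2 or 3 (highest adjusted p = 0.0836, 0.0770 and 0.0966). The Hal and Slc38a2 calls were also lost in a fit of all 9 libraries. Aqp8, Crem, Foxo3 and Nr3c1 also lost theirs without some single livers (highest adjusted p over the alternatives = 0.0796, 0.122, 0.149 and 0.107). Crem and Foxo3 lost it without the low-value filter, Crem, Foxo3 and Nr3c1 with the replicate block, and Foxo3 after rescaling. The other calls given above for genes of these 5 lists held under every alternative run for them.

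**Figure D5:**
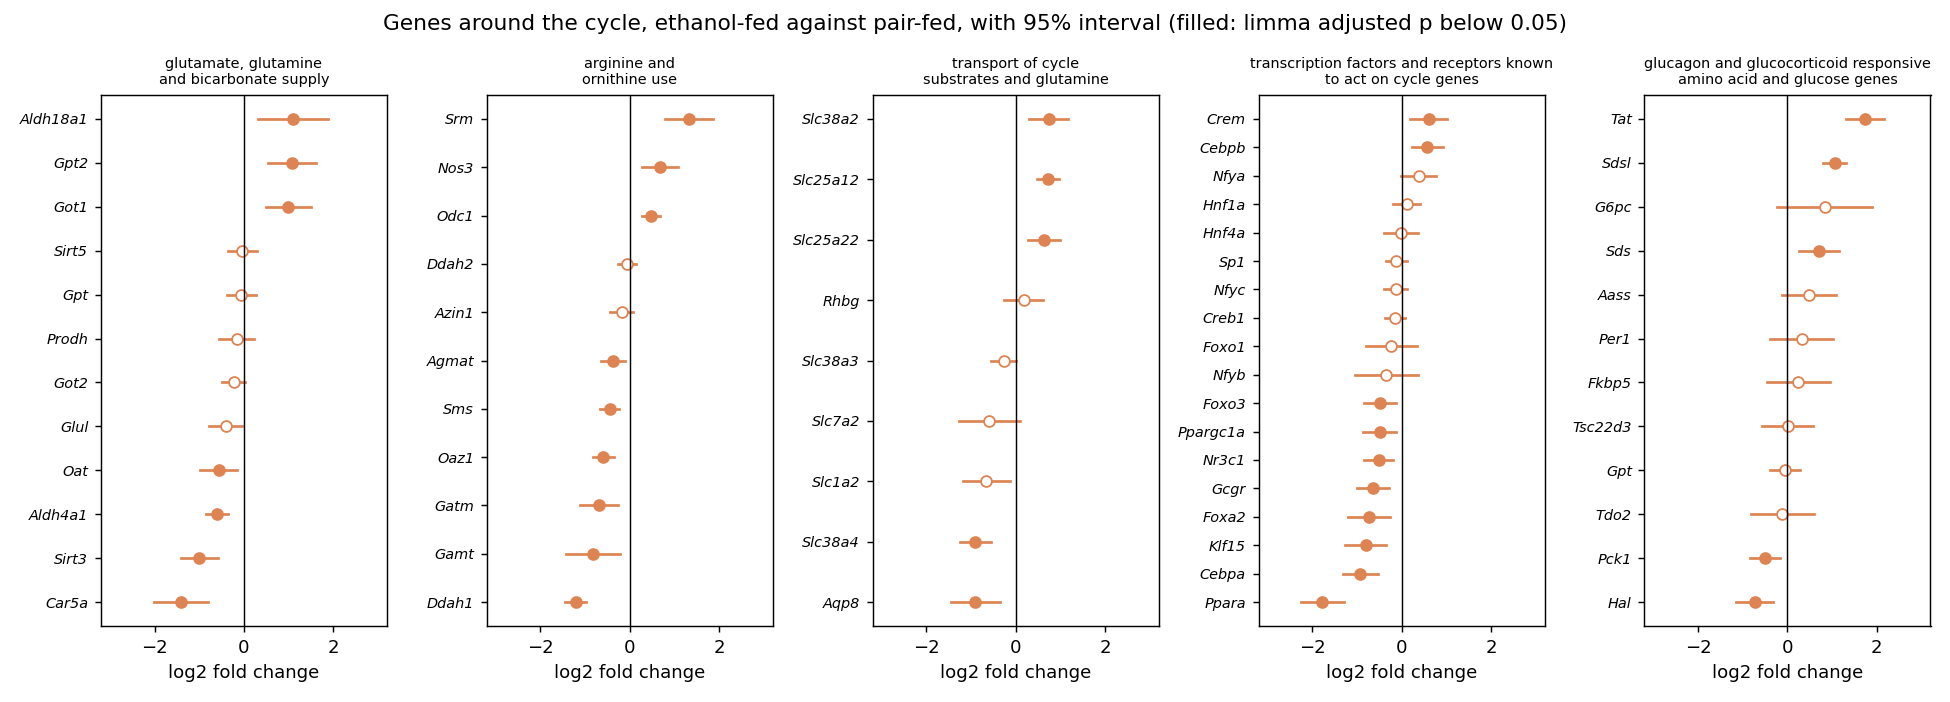
Log2 fold change on the log2(FPKM + 1) scale (x axis) of genes (y axis) of the 5 related lists, 1 panel per list, in ethanol-fed against pair-fed livers. Points are limma estimates with 95% intervals, filled where the adjusted p was under 0.05, and each panel holds filled points on both sides of 0.

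Markers of lobule position and of other cells moved with ethanol feeding as well. Over all genes the share called was 36.0% (10.0% higher, 26.0% lower), and 34.9% after rescaling (17.2% and 17.7%). The median of all genes was -0.14 before rescaling. In Mettl3 against pair-fed livers the share over all genes was 48.8% (13.9% and 34.9%). Of 14 pericentral hepatocyte genes 11 were lower and none higher in ethanol-fed livers (median -0.82; 10 lower after rescaling), with Cyp2e1 at 5021 ± 610.0 and 1395 ± 139.5 FPKM (SD, n = 3 each). Of 12 periportal genes outside the cycle 2 were higher and 4 lower (2 and 2 after rescaling), with a median of -0.06 (0.10 after rescaling). Among the lower was Hsd17b6, at 239 ± 32.9 and 51.7 ± 6.41 FPKM. The 2 higher were Sox9, at 0.335 ± 0.0790 and 1.26 ± 0.204 FPKM, and Sds, at 61.4 ± 12.5 and 101 ± 19.6 FPKM. Kupffer cell and macrophage markers, 12 of 12 listed, summed to 337 to 382 FPKM in pair-fed, 185 to 277 in ethanol-fed and 165 to 287 in Mettl3 livers. With ethanol 1 of the 12, Cd163, was called higher and 8 lower (1 and 7 after rescaling). Sinusoidal endothelial markers, 10 of 10, summed to 156 to 179, 115 to 131 and 125 to 149.5 FPKM, and stellate markers, 10 of 10, to 203 to 238, 164 to 203 and 173 to 188. With ethanol 1 endothelial marker was called higher and 7 lower (1 and 4 after rescaling). The higher one, Lyve1, rose from 4.68 ± 0.749 to 21.0 ± 8.26 FPKM. Of the stellate markers 3 were lower and none higher (1 lower after rescaling). Of the 11 hepatocyte markers 2 were called higher and 2 lower with ethanol (2 and 0 after rescaling). In Mettl3 against pair-fed livers 1 of these 11 was higher and 4 were lower (2 and 2 after rescaling). Neutrophil markers, 8 of 10 listed in both tables, summed to 7.50 to 11.7, 9.36 to 75.8 and 49.6 to 108 FPKM, with Ngp at 0 in the pair-fed livers. Much of this sum was S100a9, at 4.78 ± 1.03, 28.3 ± 20.7 and 46.8 ± 17.1 FPKM. With ethanol 1 of 4 tested neutrophil markers, S100a8, was called higher, though its groups overlapped. In Mettl3 against pair-fed livers 5 of 6 tested were higher. No neutrophil marker was called lower in either comparison. The part of these cell types in the differences of the members was not tested.

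Positions are those of RefSeq on GRCm38. Arg1 is on chromosome 10 (24915207 to 24927470), Asl on chromosome 5 (130011258 to 130024381), Cps1 on chromosome 1 (67122426 to 67231267), Slc25a15 on chromosome 8 (22375550 to 22398621), Slc25a13 on chromosome 6 (6041218 to 6217304) and Glud1 on chromosome 14 (34310727 to 34345033). Whether counting used strand is not given in the sources used here, so reads of overlapping genes cannot be told apart. Nags shares 795 bases with the lncRNA Gm11586, which reached at most 1.49 FPKM, Arg1 shares 4781 bases with the lncRNA Gm40616 (at most 1.93 FPKM), and Gls2 shares 97 bases with Spryd4 (at most 19.4 FPKM).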

How the data were processed

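RNA sequencing of 9 mouse livers was deposited as 2 tables of 6 libraries each, the ethanol-fed libraries being in both. Groups come from the sample titles. Per the submitters' processing notes, fastp, HISAT2 and HTSeq were used on mm10, with no versions or roles given. Per the file headers, the authors gave FPKM for each library. The deposited signal columns are the authors' mean normalised read counts per group, named after DESeq2. The authors' deposited fold (ratio), its log2, the p-value and the q-value are results of their own test and are quoted only as theirs.

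The tables held 16842 and 16470 genes, 16266 in both, and shared columns differed by a relative 1.08e-06 at most. All columns of per-library values were mapped to a sample. Reads recovered from FPKM and signal were whole within 0.05 for at least 99.98% of genes and served for depth and 1 added alternative.

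limma 3.58.1 in R 4.3.3 (lmFit, eBayes with trend and robust settings) tested log2(FPKM + 1) of every gene that reached 1 FPKM in 3 or more libraries. P-values were adjusted by Benjamini-Hochberg over all genes tested. The pseudocount understates changes of low genes. Ethanol-fed against pair-fed and Mettl3 against control virus used their own 6 libraries, and Mettl3 against pair-fed all 9. Ratios were compared by exact permutation tests over livers. Tables and figures were made in Python 3.11.15 (numpy 2.4.6, pandas 2.3.3, matplotlib 3.10.9).

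Alternatives were a pseudocount of 0.1, no filter, median-ratio scaling, a replicate block, another set of libraries in the fit, leaving out each library, and limma-voom on recovered reads, added after seeing the data. The members and lists were chosen with earlier results of these data known. Named are all members, Mettl3, Glul, up to 4 called genes per related or marker list and comparison with the smallest p, and the gene nearest in profile to each of the 6 enzymes. Other names are marked. The values of 1 gene of the related lists are not reported here or drawn, though list counts include it. On simulated data with 200 changed genes, the ethanol-fed fit recovered 65.4% of 2-fold and 90.4% of 4-fold changes (mean of 9895 genes), and the Mettl3 fit 53.6% and 85.0% (mean of 9573 genes). The adjustment is stricter where few genes change, and limma called 1 of 9706 genes in the real virus comparison. The simulated rates therefore do not give the power of that comparison.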

Additional observations from a re-analysis of the deposited data

How the results depend on the processing

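Asl, Arg1, Slc25a15, Slc25a13 and Glud1 kept their calls in ethanol-fed and in Mettl3 against pair-fed livers under all 12 alternatives run per comparison. Leaving out 1 library gave 5 to 7 called members in ethanol-fed against pair-fed livers (8 with all), 0 with Mettl3 against control virus, and 6 to 7 in Mettl3 against pair-fed livers (7 with all). The count was 5 without pair-fed liver 1, pair-fed liver 2 or ethanol-fed liver 3, where Cps1, Otc and Ass1 lost their calls. Over all genes, without ethanol-fed liver 1 the calls were 4743, and without pair-fed liver 2 they were 1538, beside 3625. Without the low-value filter Ass1 and Otc had adjusted p of 0.0748 and 0.0563. The Mettl3 call of the virus comparison (2.54, limma adjusted p = 0.0257) was lost without the filter (0.0875), with the block (0.238), and without ethanol-fed liver 2 (0.201) or 3 (0.137) or Mettl3 liver 1 (0.160) or 3 (0.107), while its log2 fold change over leave-one-out fits was 2.40 to 2.70. In ethanol-fed against pair-fed livers Mettl3 did not pass (0.34, adjusted p = 0.0947), but did after median-ratio rescaling (0.48, 0.0175) and without ethanol-fed liver 3 (0.46, 0.0387).

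Signs that reversed were all of uncalled differences near 0, and the cause was not tested. Leaving out 1 library, Mettl3 against control virus ran from -0.35 to 0.0706 for Cps1, -0.24 to 0.26 for Asl, -0.24 to 0.00828 for Glud1 and -0.11 to 0.21 for Slc25a15. Mettl3 against pair-fed livers ran from -0.24 to 0.22 for Gls2 and -0.0500 to 0.16 for Nags. Glul there was -0.22, and 0.0131 under median-ratio rescaling. Of the log2 ratios, Gls2 to Glul ran from -0.00353 to 0.44 in Mettl3 against pair-fed livers, Arg1 to Cps1 from -0.0348 to 0.22 in ethanol-fed against pair-fed livers, and Asl to Arg1 from -0.42 to 0.0533 with Mettl3 against control virus and from -0.19 to 0.29 in Mettl3 against pair-fed livers.

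Same-numbered livers did not deviate together with a steady sign. Correlations of their deviations were -0.188, -0.113 and 0.113 in ethanol-fed and pair-fed livers, and 0.0475, -0.0498 and 0.0940 for Mettl3 and pair-fed livers. They were larger but of mixed sign for the virus comparison, at -0.350, 0.394 and -0.412. The replicate number as a block gave 2778 calls over all genes in place of 3625 and 4472 in place of 4996, and 7 members called in place of 8 (Otc at an adjusted p of 0.0767), and 7 with and without it in Mettl3 against pair-fed livers. It gave 0 calls in place of 1 for the virus comparison. With 3 livers a group, moderate differences can be missed.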
